A study of Mus musculus with 6 samples.

Results

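The sodium pump (Na,K-ATPase) genes examined were the beta subunits Atp1b1 and Atp1b3 and the FXYD regulators Fxyd1, Fxyd2, Fxyd3, Fxyd4, Fxyd5 and Fxyd6. They were taken by gene symbol, and all 8 were found among the 24422 genes counted. RNA-seq of whole mouse kidney (C57BL/6) at postnatal day 60 compared 3 wild type controls with 3 libraries labelled TfR1KO;KspCre, whose genotype is Tfr1f/f;KspCre, and every mouse received food with 220 ppm iron. KspCre is a Cre recombinase under the Ksp-cadherin promoter, active in the thick ascending limb, the distal tubule and the collecting duct, and the proximal tubule, vessels and stroma are not among the segments it is known for. The controls are labelled wild type, and no group with Cre alone is among the samples used here. The comparison asks how the kidney transcriptome differs when the transferrin receptor TfR1 (gene Tfrc) is deleted by Cre in these segments. The TfR1KO;KspCre libraries are called knockout libraries, after their labels.

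Each library held between 11501053 and 21001341 counts, the smallest being knockout 3. Tfrc, the targeted gene, was at 138, 168 and 62.0 CPM (counts per 1e6, TMM-normalised) in controls 1 to 3 and at 214, 86.0 and 40.6 CPM in knockouts 1 to 3. It did not check the labels, because whole-gene counts also come from the exons and cells that Cre leaves, and the library labelled knockout 1 held the most. On the first principal component of log2 CPM, knockout 1 (9.67) lay between the controls (-72.6 to -53.2) and the other knockout libraries (82.1 and 88.6). Control 2 was the only library with more than 5 counts of Y-linked genes (3980) and held 52 counts of Xist, against at least 10458 in each of the others. Reads of the ribosomal RNA gene Rn45s made up 2.59% of knockout 3 and between 0.506% and 0.745% of each other library. The part of these differences between libraries in the values was not tested.

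The sodium pump moves sodium out of the tubule cell and potassium into it across the basolateral membrane, and the sodium gradient that it maintains drives reabsorption along the nephron. It is built from a catalytic alpha subunit and a beta subunit, which brings the alpha subunit to the cell surface. Small single-span FXYD proteins bind the complex and tune its affinity for sodium and its turnover, with different family members in different tissues and nephron segments. Because whole kidney was sequenced, fewer cells of a type and less RNA per cell cannot be told apart in any of the values.

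The FXYD family is named after a signature that all its members share, and the coding sequence around it shows how close the 6 FXYD genes examined, and the related Fxyd7, are to one another. Each line gives 36 coding bases from GENCODE M1 transcripts (mm9), 5′ to 3′, with the 12 bases that encode the F-X-Y-D signature in capitals.
Fxyd1: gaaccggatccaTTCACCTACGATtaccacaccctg
Fxyd2: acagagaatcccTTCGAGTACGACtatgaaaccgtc
Fxyd3: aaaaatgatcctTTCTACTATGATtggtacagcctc
Fxyd4: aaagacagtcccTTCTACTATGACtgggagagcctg
Fxyd5: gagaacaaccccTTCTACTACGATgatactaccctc
Fxyd6: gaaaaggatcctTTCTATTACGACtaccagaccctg
Fxyd7: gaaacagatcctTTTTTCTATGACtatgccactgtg
In each of the 7 genes an exon ends after base 10 of these 12, inside the last codon, and the intron that follows has between 102 bases (Fxyd5) and 2345 bases (Fxyd7). Pairs of genes shared between 7 and 11 of the 12 bases, with 11 shared by Fxyd3 and Fxyd4 and by Fxyd3 and Fxyd5. The proteins encoded by these transcripts had between 80 and 94 residues, except for that of Fxyd5 with 185, whose signature begins at residue 136. Fxyd4 and Fxyd5, each 1 base away from Fxyd3 there, were respectively lower and higher in every knockout library than in any control. Fxyd4 was not called, and a link between likeness of the signature and expression was not tested. No 100-base word of the longest transcript of any of the 8 genes examined was found in the coding transcripts of another gene, so the close relatives could be told apart at that length.

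Levels between genes were compared as CPM per kb of merged exons. In controls Fxyd2 and Atp1b1 stood far above the rest, at 1801 ± 64.2 and 1366 ± 247 CPM per kb (SD, n = 3 each). Atp1b3 followed at 81.2 ± 13.6 and Fxyd4 at 74.5 ± 11 CPM per kb, a pair whose libraries overlapped. No other neighbours in this order overlapped in controls. Fxyd1 (10.4 ± 2.01), Fxyd6 (6.31 ± 1.72) and Fxyd5 (3.34 ± 0.314) were lower again in CPM per kb, and Fxyd3 was the lowest at 0.133 ± 0.106. In knockouts the means kept this order, but Fxyd2 overlapped with Atp1b1, Fxyd4 with Fxyd1, Fxyd1 with Fxyd6, and Fxyd6 with Fxyd5. The place of Fxyd5 depended on the length used. By the median length of its coding transcripts, it stood at 17.2 CPM per kb in controls and at 79.5 in knockouts, above Fxyd4 in the latter (50.8).

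Fxyd5 and Fxyd1 rose in knockouts. Atp1b1, Fxyd2 and Fxyd4 were lower in every knockout library than in any control, but did not pass the test. Fxyd3 and Fxyd6 had higher means with overlapping groups, and Atp1b3 had nearly the same mean in both. By edgeR's quasi-likelihood test (adjusted p under 0.05 over all genes tested), 2 of the 8 genes were called, against 17.2% of the 15171 genes tested. Both calls were higher in knockouts, as were 10.6% of all genes, and 0 were lower, as were 6.64%. A further 3 genes (Fxyd3, Fxyd6 and Fxyd4) had an unadjusted p under 0.05, so that 5 of the 8 did, where 38.6% of all genes did. All 3 knockout libraries lay above all controls for 2 genes, where 23.8% of all genes did so, and below them for 3 genes, where 22.2% did so. The median absolute log2 fold change was 1.16 over the 8 genes and 0.44 over all genes tested. The calls depended on the libraries and the tool, since 6 of the 8 genes were called when knockout 1 was left out (34.4% of all genes were), and 6 by DESeq2's Wald test on all libraries (32.2% of all genes). In both of these fits the 6 were Atp1b1, Fxyd1, Fxyd2, Fxyd3, Fxyd5 and Fxyd6. With library size alone in place of TMM 4 were called (Fxyd1, Fxyd3, Fxyd5 and Fxyd6), as were 24.0% of all genes, and with limma-voom 1 was (Fxyd5), as were 13.4%. In each of the 5 fits without another single library 0 of the 8 were called, although 3 to 5 had an unadjusted p under 0.05 (edgeR). Hardly any gene was called in those fits, 0 of all genes without control 1, 2 or 3, 73 without knockout 2 and 2 without knockout 3, so the count of 0 follows the background.

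**Figure D1:**
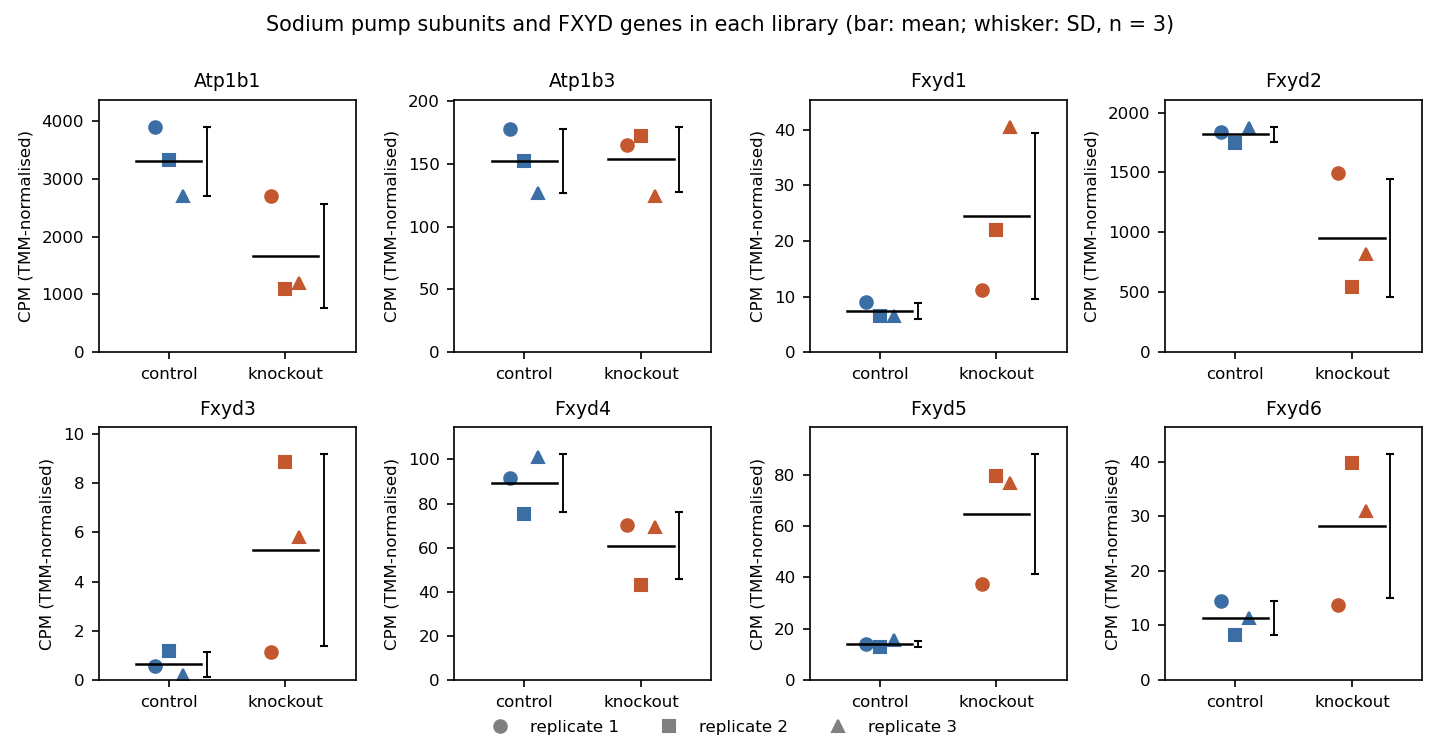
CPM of the 8 genes in each library (linear axes from 0), with the mean as a bar and the SD (n = 3) as a whisker. Fxyd5 lies between 12.8 and 15.4 CPM in controls and between 37.5 and 79.3 in knockouts, whereas Atp1b1 in knockout 1 (2697 CPM) sits level with control 3 (2700).

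Atp1b1 (ENSMUSG00000026576; chromosome 1, 166367398 to 166388486, minus strand, mm9) encodes the beta1 subunit, the main beta subunit of tubule cells. It was at 3894, 3332 and 2700 CPM in controls 1 to 3 and at 2697, 1097 and 1205 CPM in knockouts 1 to 3. Knockouts 2 and 3 were well below every control, and knockout 1 was level with control 3. The knockout mean was 50.4% of the control mean. This was -0.99 ± 0.43 as a log2 fold change with its SE, and it did not pass the test (edgeR, adjusted p 0.141). Without knockout 1 the log2 fold change was -1.53 and Atp1b1 was called (edgeR, adjusted p 0.00704). Among the fits with 1 library left out, the change was smallest without knockout 2 (-0.76), and only the fit without knockout 1 called Atp1b1. With library size alone it was -0.74.

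Atp1b3 (ENSMUSG00000032412; chromosome 9, 96233099 to 96264766, minus strand) encodes the beta3 subunit, which is found in many cell types. Its values were 178, 152 and 127 CPM in controls and 165, 172 and 124 CPM in knockouts. The groups overlapped. The log2 fold change was 0.01 (SE 0.20; edgeR, adjusted p 0.963), and its sign turned in 5 of 14 alternative fits, which ranged from -0.11 to 0.28. Its ratio to Atp1b1 is given with the other within-library ratios.

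Fxyd2 (ENSMUSG00000059412; chromosome 9, 45207957 to 45218361, plus strand) encodes the gamma subunit, which lowers the affinity of the pump for sodium in tubule cells, and whose human counterpart is mutated in a dominant form of magnesium wasting. It was the steadiest gene of the 8 in controls, at 1840, 1746 and 1870 CPM, and was at 1498, 541 and 823 CPM in knockouts. Every knockout library was below every control, with knockout 1 nearest to them. The knockout mean was 52.5% of the control mean. The log2 fold change was -0.93 (SE 0.39; edgeR, adjusted p 0.131). It was -1.42 and called without knockout 1 (edgeR, adjusted p 0.00816), and -0.65 and not called without knockout 2.

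Fxyd4 (ENSMUSG00000004988; chromosome 6, 117883747 to 117887353, minus strand) encodes CHIF, the FXYD protein of the collecting duct, which raises the affinity of the pump for sodium. Its values were 91.5, 75.1 and 101 CPM in controls and 70.3, 43.2 and 69.3 CPM in knockouts. The groups did not overlap, but control 2 and knockout 1 were close. This came to -0.55 ± 0.22 on the log2 scale (SE; edgeR, adjusted p 0.118). The log2 fold change was -0.68 without knockout 1, -0.36 without knockout 2 and -0.29 with library size alone. Fxyd4 was not called in any of the 14 alternative fits, DESeq2's included. With library size alone, the groups of Atp1b1, Fxyd2 and Fxyd4 overlapped, whereas those of Fxyd3 and Fxyd6 no longer did, all knockout libraries lying above all controls.

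Of the summed levels of segment markers, only those of the proximal tubule lay apart between the groups. The 5 proximal tubule markers (Lrp2, Cubn, Slc34a1, Slc5a2 and Slc22a6) summed to between 7879 and 11126 CPM in controls and between 1243 and 3730 in knockouts, and all 5 fell. The 5 markers of the thick ascending limb summed to between 3980 and 9711 CPM in controls and were at 6200, 867 and 1181 in knockouts 1 to 3, with 0 called. The 4 markers of the distal convoluted tubule ranged from 1940 to 3056 CPM in controls and from 152 to 2281 in knockouts, with 1 called lower (Pvalb, parvalbumin). Principal cell markers, the setting in which Fxyd4 is known, ranged from 788 to 1142 CPM in controls and from 277 to 1428 in knockouts, with 0 of 5 called. Intercalated cell markers ranged from 335 to 421 CPM in controls and from 169 to 537 in knockouts, with 0 called. Among them, Slc4a1 was below all controls in every knockout library (log2 fold change -1.82). Slc26a4 had a lower mean, and Atp6v1g3, Atp6v0d2 and Foxi1 had higher means, all with overlapping groups. Podocyte markers ranged from 447 to 557 CPM in controls and from 466 to 778 in knockouts, with 0 called. The part of these segments in the pump gene values was not tested.

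Fxyd5 (ENSMUSG00000009687; chromosome 7, 31817741 to 31827500, minus strand) encodes dysadherin, an FXYD protein with a long extracellular part that is known to weaken E-cadherin adhesion. It was at 13.8, 12.8 and 15.4 CPM in controls and at 37.5, 79.3 and 76.6 CPM in knockouts. All knockout libraries were above all controls, and the lowest of them, knockout 1, was still clear of the control range. Fxyd5 rose 4.61-fold between means, or by 2.20 ± 0.30 on the log2 scale (SE), and was 81st of all genes tested by p (edgeR, adjusted p 0.0271). The call held under DESeq2 (adjusted p 1.44e-08) and limma-voom (adjusted p 0.0399). It was lost when any library other than knockout 1 was left out, in fits that called between 0 and 73 of all genes. The log2 fold change of Fxyd5 stayed between 2.02 and 2.27 in these fits. The adjusted p (edgeR) was then 0.0805, 0.118 and 0.0927 without controls 1, 2 and 3, and 0.054 and 0.0564 without knockouts 2 and 3. Without knockout 1 it was 0.00195.

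Fxyd1 (ENSMUSG00000036570; chromosome 7, 31836700 to 31840675, minus strand) encodes phospholemman, the FXYD protein of heart, skeletal and smooth muscle. Its values were 9.01, 6.58 and 6.48 CPM in controls and 11.1, 22.0 and 40.6 CPM in knockouts. Knockout 1 was just above the controls and knockout 3 the furthest away. Fxyd1 rose 3.34-fold between means, or by 1.73 ± 0.46 on the log2 scale (SE), and passed the threshold narrowly (edgeR, adjusted p 0.046). It was not called by limma-voom (adjusted p 0.101). The log2 fold change was 1.17 without knockout 3, the library with the highest Rn45s share (edgeR, adjusted p 0.1). It was between 1.65 and 1.89 without control 1, 2 or 3 or knockout 2 (edgeR, adjusted p 0.0977 to 0.145). None of these fits called Fxyd1, and they called between 0 and 73 of all genes.

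Fxyd6 (ENSMUSG00000066705; chromosome 9, 45178268 to 45204241, plus strand), which lies beside Fxyd2 on the same strand, encodes phosphohippolin, a regulator known from the nervous system. It was at 14.4, 8.23 and 11.3 CPM in controls and at 13.8, 39.7 and 31.0 CPM in knockouts. Knockout 1 lay inside the control range, and knockouts 2 and 3 lay above it. The log2 fold change was 1.32 (SE 0.41; edgeR, adjusted p 0.0637), and it was 1.64 and called without knockout 1 (edgeR, adjusted p 0.00684), against 0.98 and not called without knockout 2. The neighbouring genes Fxyd2 and Fxyd6 thus differed in direction of their means.

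Fxyd3 (ENSMUSG00000057092; chromosome 7, 31853191 to 31861723, minus strand) encodes Mat-8, an epithelial FXYD protein first known from mammary tumours. It had only 11, 20 and 3 counts in controls and 23, 177 and 76 in knockouts. This was 0.547, 1.18 and 0.180 CPM against 1.13, 8.88 and 5.82 CPM. Control 2 and knockout 1 overlapped, and knockouts 2 and 3 were higher. On the log2 scale the difference was 3.04 ± 0.89 (SE; edgeR, adjusted p 0.0576), and it was 3.52 and called without knockout 1 (edgeR, adjusted p 0.0102). It was 2.42 without knockout 2 and 3.80 without control 2, and not called in either fit (edgeR, adjusted p 0.147 and 0.121). Of the exon bases of Fxyd3, 43.2% are shared with Lgi4 on the opposite strand. Because the strand setting of the counting was not given, the Fxyd3 values are uncertain. Exons of the other 7 genes overlapped no annotated exon.

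Among the markers of other cell types, some lists were higher in knockouts beside the FXYD genes and others were not. The 6 fibroblast and smooth muscle markers summed to between 287 and 468 CPM in controls, and to 801, 2544 and 3624 CPM in knockouts 1 to 3. Of these 6, Col1a1, Col3a1 and Acta2 rose. The 4 skeletal muscle markers summed to at most 2.09 CPM in any library. The 5 macrophage markers summed to between 127 and 139 CPM in controls and to 232, 671 and 255 CPM in knockouts 1 to 3. Csf1r made up most of the control sums (94 to 117 CPM). It was at 106, 208 and 72.1 CPM in knockouts, overlapped between groups and was not called. The 4 others were called, with means 6.48-fold (Cd68) to 10.3-fold (Adgre1) higher. Lymphocyte markers summed to between 3.38 and 5.70 CPM in controls and between 9.96 and 34.5 in knockouts, with 2 of 5 called higher. Injured tubule markers (Havcr1, Lcn2, Krt20, Spp1 and Vcam1) ranged from 1052 to 3053 CPM in controls and from 4098 to 7654 in knockouts. Spp1 made up most of these sums, at 1031 to 3034 CPM in controls and 3598 to 7051 in knockouts, and was not called. The 4 others were called higher, from lower levels, with mean CPM going from 1.09 to 59.6 (Havcr1), 5.6 to 259 (Lcn2), 1.86 to 8.54 (Krt20) and 12.6 to 155 (Vcam1). Schwann cell markers ranged from 27.6 to 36.2 CPM and from 52.7 to 77.0, with 2 of 4 called higher, endothelial markers from 319 to 588 and from 586 to 677 with 0 of 5 called, and fat markers from 36.1 to 105 and from 13.8 to 142 with 0 of 4 called. The 5 urothelium markers summed to 62.8, 814 and 6.89 CPM in knockouts 1 to 3, against 23.2 to 62.1 in controls, with 0 called. No marker was at 0 in all libraries. The part of these cell types in the FXYD values was not tested.

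The pattern over the 6 libraries grouped the genes further. For Atp1b1, Fxyd2 and Fxyd5, every other tested gene whose average log2 CPM from edgeR reached 3 was compared. This average is near the log2 of a gene's mean CPM over all libraries. The measure was the root mean square difference of log2 CPM, each gene centred on its own mean. In centred log2 CPM, Atp1b1 was at 0.80, 0.58 and 0.27 in controls and at 0.27, -1.03 and -0.89 in knockouts. Among the 3 closest to it of 11337 genes were Hsph1, a heat shock protein (0.118), and Kcnj1, the apical potassium channel ROMK (0.119), which were nearly tied. Neither was called, but both were without knockout 1 (edgeR, adjusted p 0.00348 for Hsph1 and 0.0107 for Kcnj1). Fxyd2 was 79th by closeness to Atp1b1 (0.215), and Atp1b3 only 4989th (0.680).

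**Figure D2:**
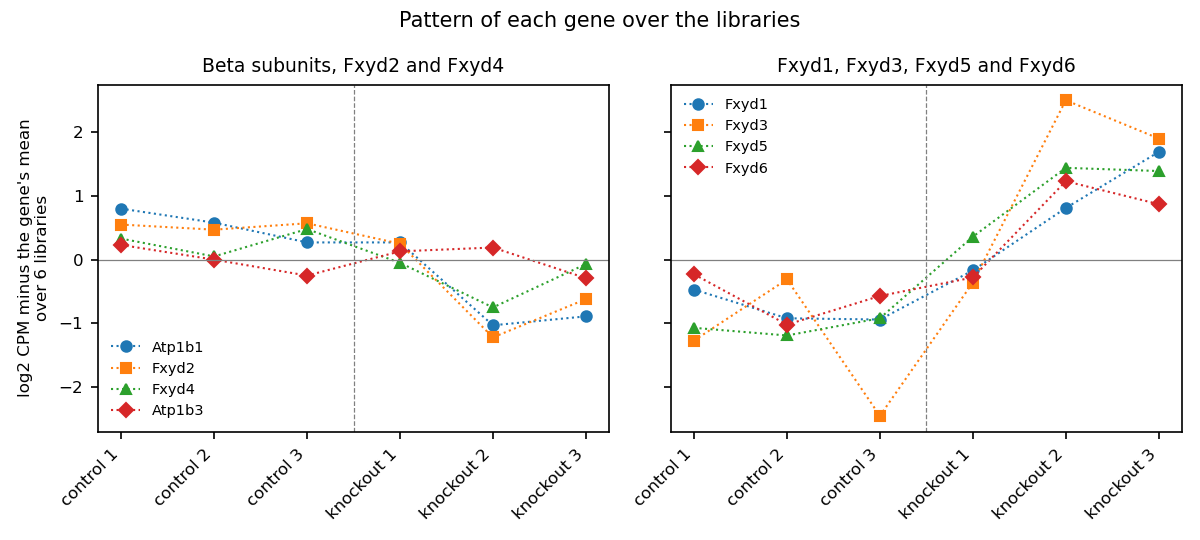
Log2 CPM of each gene minus its own mean over the 6 libraries, with dotted lines only to guide the eye between libraries, which have no order within a group. Atp1b1 is lowest in knockouts 2 (-1.03) and 3 (-0.89), Atp1b3 stays between -0.29 and 0.23, and Fxyd1, Fxyd3, Fxyd5 and Fxyd6 are highest in knockouts 2 and 3.

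The genes closest to Fxyd2 were Ngef, a guanine nucleotide exchange factor (0.0831), Atp6v0a4, a proton pump subunit (0.0861), and Rilp, a Rab7 effector (0.0968). Each of these 3 was below all controls in every knockout library, and none was called. The log2 fold change was -0.93 for Atp6v0a4 and -0.95 for Rilp. Without knockout 1 all 3 were called lower (edgeR, adjusted p 0.0063 for Ngef, 0.00436 for Atp6v0a4 and 0.00868 for Rilp). The genes closest to Fxyd5 were Nlgn2, a synaptic adhesion protein (0.0916), Serpinb6b, a serpin (0.0925), and Ptn, the growth factor pleiotrophin (0.103). They rose with log2 fold changes of 2.16, 2.13 and 2.38 (edgeR, adjusted p 0.0271 each). Ptn, at 2.54 to 2.94 CPM in controls, reached the cut on average log2 CPM only through the knockout libraries. As for Fxyd5, the calls of Nlgn2, Serpinb6b and Ptn were lost when any library other than knockout 1 was left out (edgeR, adjusted p 0.054 to 0.118). Those fits called between 0 and 73 of all genes. Among the FXYD genes, Fxyd1 was 328th (0.448) and Fxyd6 464th (0.513) by closeness to Fxyd5, whereas Fxyd2 was 10479th (1.76). These distances describe 6 libraries whose groups differ, and carry no test. Because the genes were picked for matching Atp1b1, Fxyd2 or Fxyd5 over the same libraries, their fold changes and calls follow from that choice and add no support.

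Ratios within a library do not depend on scaling between libraries, and asked whether the composition of the pump transcripts differed. Their differences largely restate the fold changes of the same genes given above, so they are no separate evidence. The pairs were chosen with earlier results of these data known. Atp1b3, in counts per kb, was 5.91%, 5.88% and 6.08% of Atp1b1 in controls and 7.93%, 20.3% and 13.3% in knockouts. The control values were nearly identical and all knockout values were above them, with a difference in mean log2 ratio of 1.11, or 2.16-fold. Fxyd5, also per kb, was 0.182%, 0.177% and 0.199% of Fxyd2 in controls and 0.604%, 3.54% and 2.25% in knockouts, a difference of 3.19 on the log2 scale. By median coding transcript length in place of merged exons, Fxyd5 was 0.587%, 0.570% and 0.642% of Fxyd2 in controls and 1.95%, 11.4% and 7.26% in knockouts, with the same difference, since length cancels out of it. For both ratios the exact two-sided permutation test gave p = 0.1, the smallest that 3 against 3 libraries allow (adjusted p 0.15 over the 3 ratios tested), so neither could reach the threshold. Fxyd2 was 113%, 126% and 166% of Atp1b1 per kb in controls and 133%, 118% and 164% in knockouts. The groups overlapped, with a difference of 0.04 on the log2 scale (SD 0.29 in controls and 0.24 in knockouts; exact permutation test, p = 0.8). The direction of this difference turned without control 1 (-0.08), control 2 (-0.00) or knockout 3 (-0.09). Without knockout 1 the log2 differences of the 3 ratios were 1.46 for Atp1b3 to Atp1b1, 3.93 for Fxyd5 to Fxyd2 and 0.06 for Fxyd2 to Atp1b1.

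**Figure D3:**
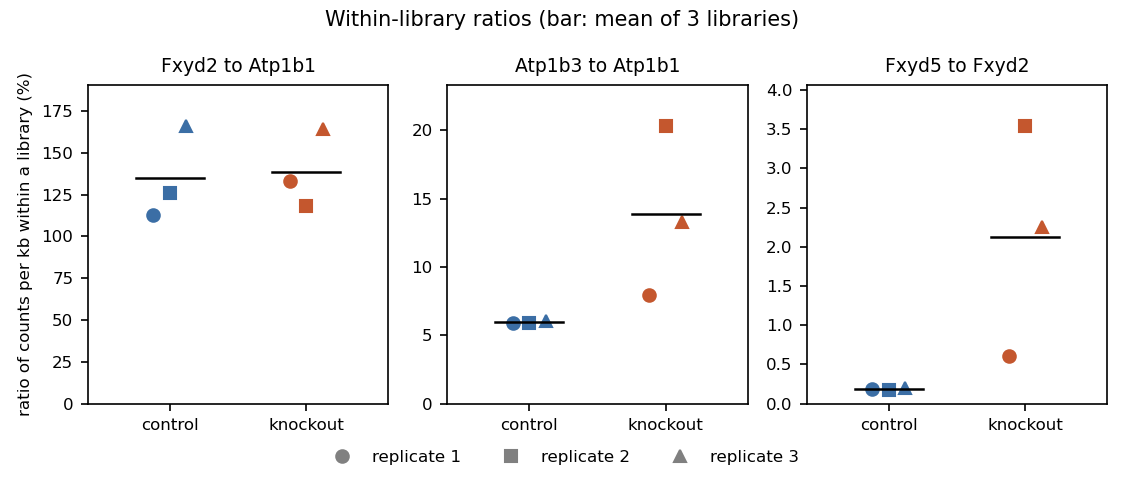
Ratio of counts per kb of 2 genes within each library, in percent, with the mean of 3 libraries as a bar. Fxyd2 to Atp1b1 overlaps between groups (113% to 166% in controls), while Atp1b3 to Atp1b1 and Fxyd5 to Fxyd2 are higher in every knockout library than in any control.

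The other genes of sodium transport were read from lists of 22 genes, of which 18 passed the filter on low counts. Of these, 0 rose, 2 fell and 16 did not pass the test, where 17.2% of all genes were called. The median log2 fold change of the 18 was -0.37, and that of all genes tested was 0.02. Without knockout 1, 7 of the 18 were called (34.4% of all genes were), 6 lower (Slc5a2, Slc34a1, Slc9a3, Slc12a1, Scnn1a and Atp4a) and 1 higher (Atp1b2), and without any other single library 0 were, in fits that called between 0 and 73 of all genes. DESeq2 called 4 of the 18, and 32.2% of all genes.

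Of the subunits outside the 8 genes, Atp1b2, the beta2 subunit of glia, was at 27.1, 20.0 and 21.2 CPM in controls and 31.7, 37.2 and 72.3 CPM in knockouts. All knockout libraries were above all controls, but the log2 fold change of 1.04 (SE 0.33) was not called (edgeR, adjusted p 0.0654). It was called without knockout 1 (edgeR, adjusted p 0.0222), with library size alone and by DESeq2. Without knockout 3 the log2 fold change of Atp1b2 was 0.60, and it was not called (edgeR, adjusted p 0.115). Fxyd7, which lies between Fxyd5 and Fxyd1 on chromosome 7, had 7, 2 and 10 counts in controls and 12, 17 and 28 in knockouts, also uncalled (log2 fold change 1.70, SE 0.71; edgeR, adjusted p 0.128). The log2 value of Fxyd7 was 1.01 without knockout 3 and 2.27 without control 3. Atp1b4 had at most 2 counts in any library. Of the NKAIN genes, whose proteins bind the beta1 subunit, Nkain1 (log2 fold change -0.02) and Nkain4 (2.09, SE 1.02) were tested and not called. Nkain4 was at 1.21 without knockout 3 and at 3.49 without control 1. Of the related proton-potassium pumps, Atp4a (-0.89, SE 0.64) and Atp12a (0.49, SE 0.57) were not called. Without knockout 1 Atp4a was at -1.76 and called (edgeR, adjusted p 0.0457), and without knockout 3 it was at -0.44. Atp12a ranged from 0.04 without knockout 1 to 0.89 without control 3. Nkain2, Nkain3 and Atp4b were too low to be tested.

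The 8 genes of apical sodium entry, through which the sodium that the pump exports comes into the cell, had a median log2 fold change of -1.27. The proximal carriers Slc5a2, the glucose cotransporter SGLT2, and Slc34a1, the phosphate cotransporter NaPi-IIa, fell by 2.38 and 2.12 on the log2 scale (edgeR, adjusted p 0.0271 and 0.0432). Both are also among the proximal tubule markers above, so their fall is not a separate observation. Slc12a1, Slc12a3, Scnn1b and Scnn1g are likewise in the segment marker lists above. The calls of Slc5a2 and Slc34a1 were lost when any library other than knockout 1 was left out. Those fits called between 0 and 73 of all genes. The adjusted p (edgeR) was then 0.0569 to 0.118 for Slc5a2 and 0.0883 to 0.129 for Slc34a1. The Slc34a1 call was also lost with the newer quasi-likelihood version (edgeR, adjusted p 0.0754). The exchanger gene Slc9a3 (NHE3), at -2.51 ± 0.91 on the log2 scale (SE; edgeR, adjusted p 0.0900), was not called but was below all controls in every knockout library. It was called without knockout 1, at -4.27 (edgeR, adjusted p 0.00376), and also by DESeq2 (adjusted p 0.00864) and limma-voom (adjusted p 0.0479). Slc12a1 of the thick ascending limb (-1.46, SE 0.81) and Slc12a3 of the distal convoluted tubule (-1.08, SE 0.88) were not called. Without knockout 1 Slc12a1 was at -2.67 and called (edgeR, adjusted p 0.022). Slc12a3 was at -2.10 without knockout 1 and at -0.54 without knockout 3, and not called in either fit. Of the sodium channel subunits of the collecting duct, Scnn1a had a log2 fold change of -0.63 (SE 0.31), Scnn1b one of 0.19 (SE 0.25) and Scnn1g one of 0.10 (SE 0.33), and none was called. Without knockout 1 Scnn1a was at -1.06 and called (edgeR, adjusted p 0.00996). Among 4 genes that control the pump or sodium entry, Sgk1 (-0.40, SE 0.27), Nedd4l (-0.35, SE 0.16), the mineralocorticoid receptor Nr3c2 (-0.25, SE 0.21) and Hsd11b2 (-0.39, SE 0.29) were not called. With 1 library left out, Sgk1 ranged from -0.56 to -0.07, Nedd4l from -0.45 to -0.23, Nr3c2 from -0.41 to -0.15 and Hsd11b2 from -0.71 to -0.19.

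**Figure D4:**
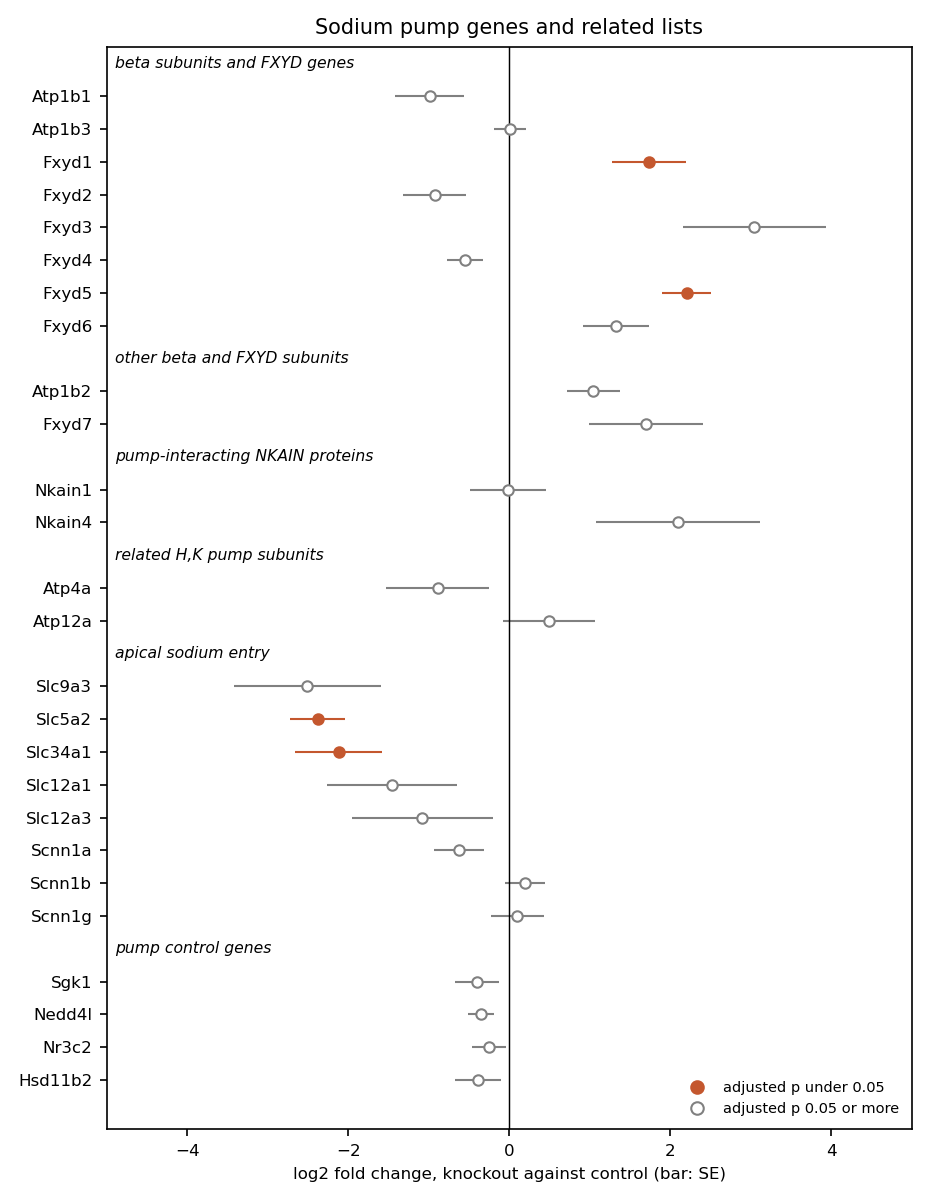
Log2 fold change (knockout against control) with its SE for the 8 genes and for the 18 tested genes of the related lists, filled where the adjusted p was under 0.05. Fxyd5 (2.20) and Fxyd1 (1.73) are the only filled points to the right of 0, and Slc5a2 and Slc34a1 the only ones to the left.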

How the data were processed

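Poly-A RNA of whole kidney was sequenced by the authors. Per the labels and the methods of the study, reads were handled with CASAVA 1.8.2 and Trimmomatic, aligned with TopHat 2.0.11 and counted per gene with HTSeq, with mm9 as the build named. The annotation and strand setting are not given in the sources used here. The deposited tables hold raw, unnormalised counts for each gene, 1 table per group, with columns matched to samples by their description labels and groups taken from the titles. Replicates, which the study calls biological, differed beyond sampling noise (chi-square over its degrees of freedom, 52.9 to 125), so each library counted once.

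Genes were kept by filterByExpr (minimum count 10, minimum total 15), scaled by TMM and tested with edgeR 4.0.16 (quasi-likelihood, default legacy version, no covariate) in R 4.3.3, with Benjamini-Hochberg adjustment over all genes tested. The SE of a log2 fold change was taken from the F statistic. Log2 CPM used a prior count of 2. Ratios had 0.5 added to each count and were tested by exact permutation. Positions, exon lengths and sequences are from GENCODE M1 (mm9). Fits were tested on simulated data. Alternatives used DESeq2 1.42.0, limma 3.58.1, other scalings and filters, a replicate block and each library left out. The genes, the lists of related and marker genes, and the tests were chosen with earlier results of these data known. All 8 genes are reported, with the list genes and, by rule, the 3 genes closest in pattern to Atp1b1, Fxyd2 and Fxyd5, except for a few that are not reported here. Counts without molecular identifiers carry PCR error as well.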

Additional observations from a re-analysis of the deposited data

How the results depend on the processing

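The calls rested on few libraries. The 2612 genes called became 4882 with DESeq2's Wald test, 0 with the replicate block (5432 with an unadjusted p under 0.05) and 0 to 5332 with 1 library left out, with 5332 without knockout 1, 73 and 2 without knockouts 2 and 3, and 0 in each fit without a control (4270 to 4823 with an unadjusted p under 0.05). The 2 of the 8 genes called became 4 with library size alone (24.0% of all genes), 6 with DESeq2 (32.2%), 1 with limma-voom (13.4%), 0 with the replicate block (5 with an unadjusted p under 0.05) and 0 to 6 with 1 library left out. Same-numbered libraries correlated at -0.13, 0.01 and 0.21 in their deviations, and no pairing by number was seen. Library size alone moved the median of all genes from 0.02 to 0.29 and put 81.8% of calls higher, against 61.4%. Of 111 alternative log2 fold changes of the 8 genes, 83 kept sign and side of the threshold, 13 lost and 10 gained a call, and 5 turned sign. These 5 were of Atp1b3, at 0.00 with DESeq2 size factors and DESeq2, and -0.11, -0.05 and -0.08 without control 3, knockout 1 and knockout 2 (-0.11 to 0.15 with 1 library left out). Nkain1 turned to 0.24 (library size alone), 0.23 (limma-voom), 0.22 (replicate block), 0.77 (without control 3) and 0.00 (without knockout 2; -0.34 to 0.77 over those left out), Scnn1b to -0.02 (without knockout 1; -0.02 to 0.39), Scnn1g to -0.01 (limma-voom), 0.00 (replicate block, and without control 1) and -0.33 (without knockout 1; -0.33 to 0.38), and Nr3c2 to 0.02 (library size alone). The log2 difference of Fxyd2 to Atp1b1 ranged from -0.09 to 0.20, that of Atp1b3 to Atp1b1 from 0.78 to 1.46 and that of Fxyd5 to Fxyd2 from 2.65 to 3.93 with 1 library left out. The cause was not tested. The 22 related genes had 0 to 7 calls with 1 library left out, and 0 with the replicate block. Fxyd3, with 3 to 177 counts, was left out by the filter of 10 counts in every library.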
